A study of Mus musculus with 12 samples.

Results

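The genes described here make the machinery that presents peptides on MHC class I in the mouse macrophage line RAW264.7. The 10 genes, chosen as a list from the known pathway with earlier results of these data known, are H2-K1, H2-D1, B2m, Tap1, Tap2, Tapbp, Psmb8, Psmb9, Psmb10 and Psme1. All 10 were among the 24185 gene symbols on the array, all 10 passed the filter on dim probes, and they stand among 13860 genes tested. RNA was measured on 12 one-colour Agilent arrays in 4 groups of 3. NS cells received neither addition, HS cells 40 mM added NaCl, NS+LPS cells 10 ng/ml LPS and HS+LPS cells 40 mM added NaCl with 10 ng/ml LPS, all for 24 h. LPS, short for lipopolysaccharide, comes from the bacterial outer membrane and is sensed by TLR4. NS and HS are not spelled out in the labels, and the series title gave the reading of HS as high salt. RAW264.7 is 1 line, derived from a virus-induced tumour of a BALB/c mouse, so all groups share its genotype.

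Class I molecules carry short peptides from proteins made inside the cell to the surface, where CD8 T cells read them. Proteasomes cut the proteins, the TAP transporter moves the peptides into the endoplasmic reticulum, and tapasin helps load them onto a heavy chain bound to beta-2-microglobulin. In macrophages, interferons and LPS are known to raise many of these genes and to exchange the catalytic subunits of the standard proteasome for those of the immunoproteasome. The transcriptional activator NLRC5, interferon regulatory factors (IRF) and NF-kB are known to act at class I promoters.

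Because the members moved together with LPS, promoter sequence is shown for 3 of them and for the shared region of a gene pair. RefSeq (GRCm38.p6) gave promoter windows of 300 bases, from 250 before to 50 after the annotated start, for 9 of the 10 members, and Tap2 is named only. The letters AANNGAAA, the core that IRF proteins recognise, and the NF-kB consensus were searched on both strands and are printed in capitals in the stretches of H2-K1 (chr17:34000414-34000473, minus strand), H2-D1 (chr17:35262908-35262967, plus strand) and B2m (chr2:122147535-122147594, plus strand). The fourth sequence is the 225 bases between the starts of Psmb9 and Tap1 (chr17:34187331-34187555, plus strand, the strand of Tap1), which point away from each other. It has no capitals because neither motif occurs in it. Each is written 5′ to 3′ on the strand named.
H2-K1: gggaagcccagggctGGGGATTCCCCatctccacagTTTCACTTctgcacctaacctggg
H2-D1: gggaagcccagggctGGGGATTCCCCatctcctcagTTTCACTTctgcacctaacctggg
B2m: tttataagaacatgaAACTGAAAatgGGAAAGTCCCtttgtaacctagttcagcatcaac
Tap1 and Psmb9: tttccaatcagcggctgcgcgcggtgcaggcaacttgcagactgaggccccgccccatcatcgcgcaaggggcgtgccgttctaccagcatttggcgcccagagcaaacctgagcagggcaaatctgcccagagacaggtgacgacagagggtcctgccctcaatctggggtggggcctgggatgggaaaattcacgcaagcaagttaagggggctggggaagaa

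The H2-K1 and H2-D1 stretches were identical at 59 of 60 bases. AANNGAAA was found in the windows of 4 of the 9 members (H2-K1, H2-D1, B2m and Psme1), against 24.2% of 27025 promoter windows. The NF-kB consensus was found in 3 of the 9 (H2-K1, H2-D1 and B2m), against 8.18% of windows. The exact letters of that match in H2-K1 and H2-D1, the first run of capitals in their stretches, occurred in 6 of all windows, or 0.0222%, a share that counts both members, from which the letters were read. A match says only that the letters are there, and a window without one says nothing of the factor.

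The arrays differed by slide. The first slide held the 6 arrays without LPS together with NS+LPS replicates 1 and 2. NS+LPS replicate 3 came from a second slide of that day, and the third slide, read on a later day, held the 3 HS+LPS arrays and no others. Treatment and slide (with its scan day) cannot be told apart in any comparison with HS+LPS. The 75th percentile of the signal over non-control spots was between 613 and 783 on the other 9 arrays and between 411 and 438 on the HS+LPS arrays, and each value below is a signal divided by its array's own 75th percentile. Of 10 macrophage markers, 9 were above background, with Adgre1, Csf1r, Cd68 and Lyz2 among them, and Mrc1 was not. Their summed level was 819 to 922 in NS and HS, 851 to 895 in NS+LPS and 1037 to 1090 in HS+LPS. Single markers moved within that sum. With salt alone Cd14 (0.37) and Itgam (0.19) were called higher and Adgre1 (-0.42) and Cd68 (-0.29) lower on the log2 scale. With salt in the presence of LPS 5 of the 9 were called higher, Csf1r most (0.60), and 3 lower, Fcgr1 most (-1.42). With LPS alone 5 were called higher, Fcgr1 most (2.06), and 4 lower. Of all genes, 18.2% were called higher and 18.8% lower with salt alone. Those shares were 26.2% and 31.4% with salt in the presence of LPS, and 28.6% and 35.1% with LPS alone. None of the NK cell, dendritic cell and epithelial markers was above background, and Cd8a, Col1a1 and Cdh5 were not either. The T cell markers Cd3e and Cd4 (2 of 5) and the endothelial markers Pecam1 and Kdr (2 of 3) were above background. So was the fibroblast marker Col1a2 (1 of 3). The summed level of each of these lists was at most 3.61, and Kdr alone had group means of 2.66 to 3.19. Pecam1 was called higher with salt alone (0.66), with salt in the presence of LPS (0.67) and with LPS alone (0.85). Its signal was dim, with group means of 0.114 to 0.327. Cd3e was called higher with salt alone (0.19) and lower with salt in the presence of LPS (-0.38). The sum of the B cell markers Cd79a and Cd79b reached 1.62 on 1 NS+LPS array and was at most 0.301 in the other groups. The part of these markers in the results was not tested. Separate cultures are not stated for the replicates, and p-values then cover only how these samples vary, possibly for technical reasons.

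Added salt alone went with lower class I presentation RNA. In HS against NS, 7 of the 10 genes fell and none rose by limma's moderated test (adjusted p under 0.05 over all genes tested), while of all 13860 genes 18.8% were called lower and 18.2% higher (37% in all). The median log2 difference of the 10 was -0.28, against 0.017 for all genes. Tap1 and Psmb9 fell most, 1.68- and 1.67-fold, and Tapbp, Psmb10 and Psme1 were not called. For 9 of the 10 genes, the 3 HS arrays lay below the 3 NS arrays with no overlap, where 50.4% of all genes had groups that did not overlap in either direction.

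LPS alone went with higher levels of every member. In NS+LPS against NS, all 10 rose, from 1.64-fold for Psme1 to 4.97-fold for Tap1, where 28.6% of all genes were called higher and 35.1% lower (63.7% in all). No NS+LPS array overlapped an NS array for any of the 10, as was so for 69.6% of all genes. The median log2 difference of the 10 was 1.06, against -0.034 for all genes. On the slide that holds both groups (NS+LPS replicates 1 and 2), all 10 were again called, with log2 differences from 0.70 for Psme1 to 2.35 for Tap1.

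With added salt in the presence of LPS, members were called in both directions. In HS+LPS against NS+LPS, 4 genes fell (Psmb9, Tap1, Psmb10 and Psmb8), 2 rose (Tapbp and Psme1) and 4 were not called (H2-K1, H2-D1, B2m and Tap2). Of all genes, 31.4% were called lower and 26.2% higher in that comparison (57.5% in all), so the count of members lies near the share for all genes. The groups did not overlap for 8 of the 10 (6 lower, 2 higher), against 64.2% of all genes. The median of the 10 was -0.093, against -0.043 for all genes.

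**Figure D1:**
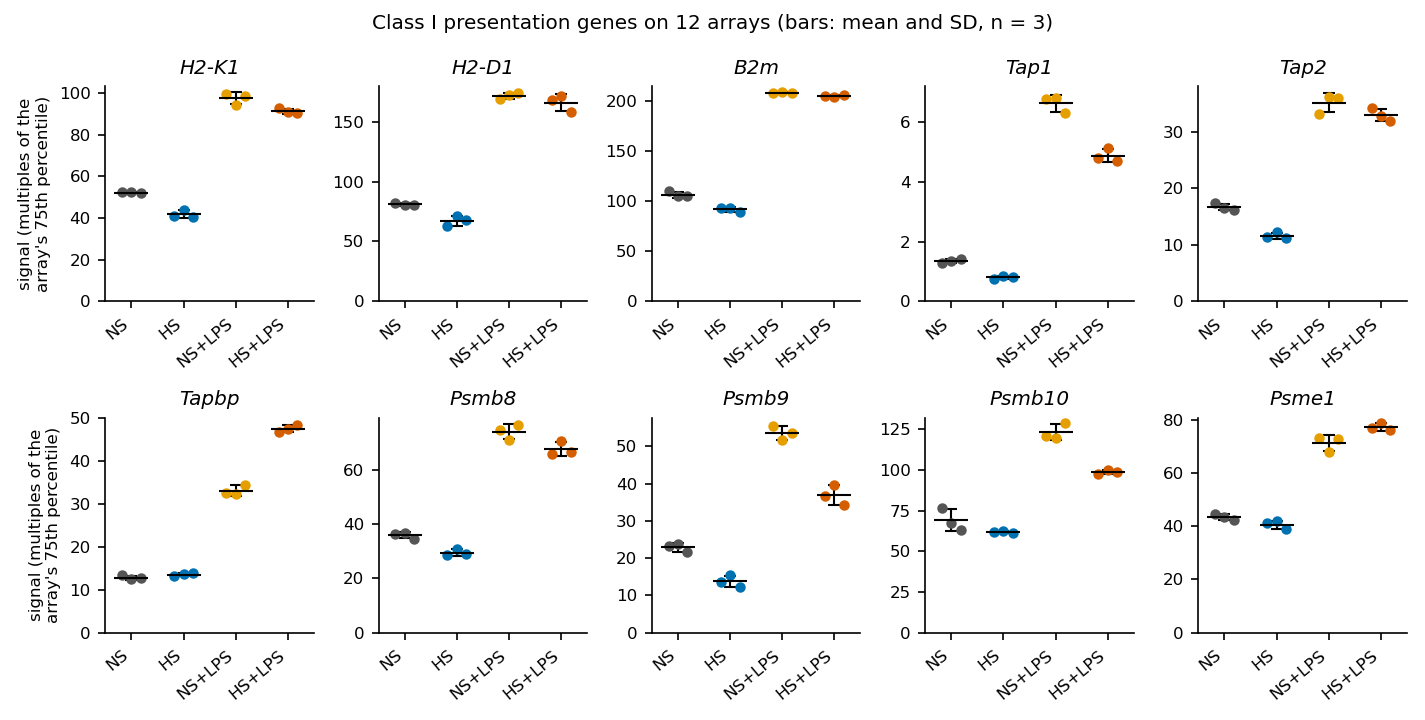
Signal of the 10 genes on each array, in multiples of the array's 75th percentile (vertical axes start at 0 and differ between panels). Points are arrays, and bars are the mean and SD of 3 arrays per group. All 10 genes are higher with LPS. The HS+LPS arrays lie above the NS+LPS arrays for Tapbp and Psme1. They lie below them for Tap1, Psmb9 and Psmb10, and narrowly below them for H2-K1, B2m and Psmb8.

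**Figure D2:**
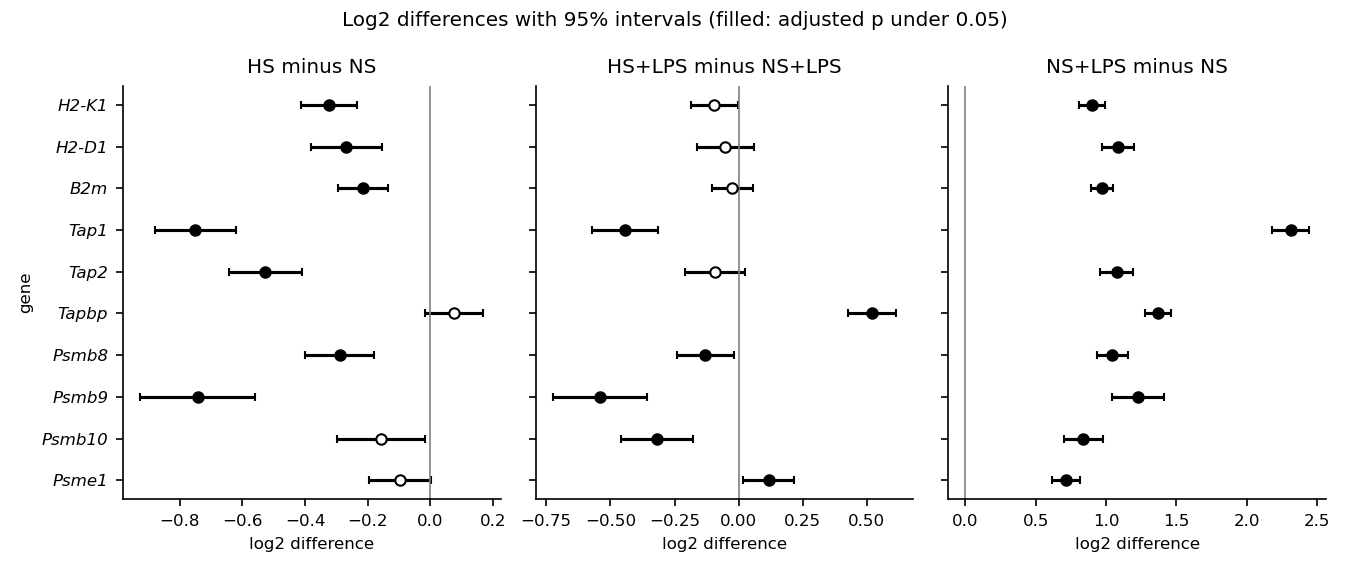
Log2 differences of the 10 genes with 95% confidence intervals in 3 comparisons (horizontal axes differ between panels). Filled points have an adjusted p under 0.05. The 7 filled points of HS minus NS lie below 0, the 10 of NS+LPS minus NS above 0, and the 6 of HS+LPS minus NS+LPS on both sides of 0.

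The heavy chains bind the peptide and are what T cell receptors see. H2-K1, which codes for the K heavy chain, is read by its brightest probe (mm9, chromosome 17, 34133055 to 34133114, minus strand). Its signal was 52.3, 52.4 and 51.8 on the NS arrays, 41.1, 43.8 and 40.3 on the HS arrays, 99.6, 94.2 and 98.6 on the NS+LPS arrays and 92.7, 90.8 and 90.3 on the HS+LPS arrays (replicates 1 to 3). All 4 groups were apart from each other, HS lowest and NS+LPS highest. H2-K1 fell 1.25-fold with salt alone (log2 difference -0.32, SE 0.041, adjusted p = 0.000189) and rose 1.87-fold with LPS alone (0.90, SE 0.041). With salt in the presence of LPS its difference of -0.095 (95% interval -0.19 to -0.0043) missed the threshold after adjustment (adjusted p = 0.0687).

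H2-D1 codes for the D heavy chain (mm9, chromosome 17, 35403886 to 35403945, plus strand). Its signal was 82.0, 80.8 and 80.0 on the NS arrays, 63.0, 71.3 and 67.7 on the HS arrays, 169, 172 and 174 on the NS+LPS arrays and 168, 172 and 158 on the HS+LPS arrays. HS was the lowest group and did not overlap NS, while both LPS groups overlapped each other. H2-D1 fell 1.204-fold with salt alone (-0.27, SE 0.050, adjusted p = 0.00228) and rose 2.12-fold with LPS alone (1.09, SE 0.050). In the presence of LPS the salt difference was -0.051, with a 95% interval of -0.16 to 0.061.

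B2m codes for beta-2-microglobulin, the light chain that every classical class I molecule needs to reach the surface (mm9, chromosome 2, 121978401 to 121978460, plus strand). Its signal was 109.97, 105 and 105 on the NS arrays, 93.2, 93.0 and 88.8 on the HS arrays, 208, 209 and 208 on the NS+LPS arrays and 205, 204 and 206 on the HS+LPS arrays. The HS arrays were below all NS arrays, and the HS+LPS arrays just below all NS+LPS arrays. B2m fell 1.16-fold with salt alone (-0.22, SE 0.035, adjusted p = 0.00101) and rose 1.96-fold with LPS alone (0.97, SE 0.035). In the presence of LPS the salt difference was -0.024, with a 95% interval of -0.10 to 0.055.

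The probes of H2-K1 did not give the same answer for salt in the presence of LPS. The second probe lies upstream in the transcript (mm9, chr17:34133984-34134043, minus strand). It shares its longest run of bases, 29, with the probe of H2-T23 (mm9, chr17:36167338-36167574, minus strand, an interval longer than the probe), a gene for the Qa-1 heavy chain, so both are shown with that run in capitals, as the scanner files give them.
H2-K1 second probe: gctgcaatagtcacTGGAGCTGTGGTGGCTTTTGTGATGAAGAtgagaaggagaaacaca
H2-T23 probe: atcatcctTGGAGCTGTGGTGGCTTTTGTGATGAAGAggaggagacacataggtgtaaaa

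The second H2-K1 probe also shared runs of 19 to 22 bases with 3 other probes of the array, and no other member probe shared a run of 18 bases or more with a probe of another gene. Probes were compared with probes only, not with transcripts, so the search cannot tell which other RNA a probe may read. The second probe's signal was 19.98, 21.0 and 21.5 on the NS arrays, 15.9, 16.5 and 15.6 on the HS arrays, 46.3, 45.5 and 44.5 on the NS+LPS arrays and 49.6, 51.4 and 51.6 on the HS+LPS arrays. With this probe HS+LPS was the highest group, above all NS+LPS arrays. Its log2 difference for salt in the presence of LPS was 0.16 (SE 0.042, adjusted p = 0.00860 over all probes with a symbol that passed the filter). The call ended under 1 of 10 alternatives, normexp background correction (0.11, adjusted p = 0.0789), and the difference stayed above 0 in all 10. For salt alone this probe fell by 0.38 on the log2 scale, and for LPS alone it rose by 1.12, the same directions as the brightest probe. H2-T23, named here after its values were seen, was at -0.23 (SE 0.052, adjusted p = 0.00586) for salt alone and at 0.29 (SE 0.052, adjusted p = 0.00100) for salt in the presence of LPS. Whether H2-T23 RNA contributes to the second probe's signal was not tested, nor was any effect of the BALB/c alleles of this line on probes designed to the reference genome.

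**Figure D3:**
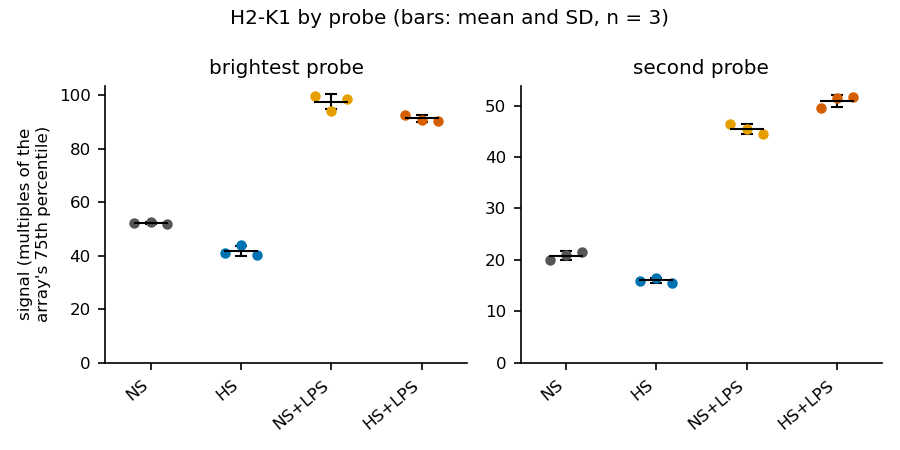
Signal of the brightest and the second H2-K1 probe on each array, in multiples of the array's 75th percentile, with the mean and SD of 3 arrays per group. Both probes show NS above HS and the LPS groups above both, but HS+LPS lies below NS+LPS with the brightest probe and above it with the second.

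TAP, a heterodimer of the products of Tap1 and Tap2, pumps peptides from the cytosol into the endoplasmic reticulum. Tap1 (mm9, chromosome 17, 34330854 to 34330913, plus strand) read 1.27, 1.34 and 1.40 on the NS arrays, 0.749, 0.832 and 0.804 on the HS arrays, 6.78, 6.82 and 6.32 on the NS+LPS arrays and 4.79, 5.15 and 4.72 on the HS+LPS arrays. The groups did not overlap, HS was lowest and NS+LPS highest. Tap1 fell 1.68-fold with salt alone (-0.75, SE 0.058, adjusted p = 1.02e-05) and 1.36-fold with salt in the presence of LPS (-0.44, SE 0.058, adjusted p = 0.000130). Its rise with LPS alone was 4.97-fold (2.31, SE 0.058).

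Tap2 (mm9, chromosome 17, 34353116 to 34353175, plus strand) read 17.3, 16.5 and 16.2 on the NS arrays, 11.3, 12.2 and 11.2 on the HS arrays, 33.2, 36.2 and 36.1 on the NS+LPS arrays and 34.2, 32.9 and 32.0 on the HS+LPS arrays. HS lay below NS, and the LPS groups overlapped. Tap2 fell 1.44-fold with salt alone (-0.53, SE 0.052, adjusted p = 4.49e-05) and rose 2.11-fold with LPS alone (1.08, SE 0.052). In the presence of LPS the salt difference was -0.091, with a 95% interval of -0.21 to 0.026.

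Tapasin, the product of Tapbp, bridges TAP and the empty class I molecule and favours the loading of tightly bound peptides. Tapbp (mm9, chromosome 17, 34065963 to 34066022, plus strand) read 13.4, 12.5 and 12.7 on the NS arrays, 13.2, 13.6 and 13.8 on the HS arrays, 32.7, 32.3 and 34.6 on the NS+LPS arrays and 46.8, 47.4 and 48.4 on the HS+LPS arrays. NS and HS overlapped, and all HS+LPS arrays were above all NS+LPS arrays. For salt alone the difference was 0.076 (95% interval -0.017 to 0.17, adjusted p = 0.186), and in the presence of LPS Tapbp rose 1.43-fold with salt (0.52, SE 0.042, adjusted p = 4.93e-06). Its rise with LPS alone was 2.58-fold (1.37, SE 0.042), and from NS to HS+LPS it rose 3.70-fold, the highest fold of the 10 genes in that comparison.

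Psmb8, Psmb9 and Psmb10 code for the catalytic subunits of the immunoproteasome, which favours cuts that leave the hydrophobic or basic ends class I molecules bind. Psmb9 (mm9, chromosome 17, 34319174 to 34319233, minus strand) read 23.3, 23.9 and 21.6 on the NS arrays, 13.6, 15.4 and 12.3 on the HS arrays, 55.6, 51.7 and 53.6 on the NS+LPS arrays and 36.8, 39.6 and 34.3 on the HS+LPS arrays. No groups overlapped, and salt went with a lower signal both without and with LPS. Psmb9 fell 1.67-fold with salt alone (-0.74, SE 0.083, adjusted p = 9.15e-05) and 1.45-fold with salt in the presence of LPS (-0.54, SE 0.083, adjusted p = 0.000348). LPS alone raised it 2.34-fold (1.23, SE 0.083). A second Psmb9 probe was above background on 0 of 12 arrays and was not used. Psmb9 and Tap1, which face away from each other across the printed 225 bases, were the members with the largest falls in both salt comparisons.

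Psmb8 (mm9, chromosome 17, 34337771 to 34337830, plus strand) read 36.4, 36.9 and 34.7 on the NS arrays, 28.5, 31.0 and 28.9 on the HS arrays, 74.8, 71.1 and 76.6 on the NS+LPS arrays and 65.9, 70.9 and 66.5 on the HS+LPS arrays. The groups did not overlap, though the highest HS+LPS array came close to the lowest NS+LPS array. Psmb8 fell 1.22-fold with salt alone (-0.29, SE 0.050, adjusted p = 0.00136) and rose 2.06-fold with LPS alone (1.04, SE 0.050). In the presence of LPS it fell 1.09-fold with salt (-0.13, SE 0.050, adjusted p = 0.0454). That call ended under 10 of 18 alternatives, among them without NS+LPS replicate 1 (-0.12, adjusted p = 0.104) or 3 (-0.11, adjusted p = 0.137) and without HS+LPS replicate 1 (-0.11, adjusted p = 0.134) or 3 (-0.12, adjusted p = 0.117).

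Psmb10 (mm9, chromosome 8, 108459677 to 108459736, minus strand) read 76.4, 67.6 and 63.1 on the NS arrays, 61.6, 62.3 and 61.1 on the HS arrays, 121, 119.8 and 129 on the NS+LPS arrays and 97.7, 100.3 and 98.5 on the HS+LPS arrays. The NS arrays were the most spread, and HS lay just below them. The salt difference without LPS was -0.16 (95% interval -0.30 to -0.019), which was not called (adjusted p = 0.0731), and was called under 7 of 20 alternatives, among them without NS replicate 3 (-0.22, adjusted p = 0.0168). In the presence of LPS, Psmb10 fell 1.25-fold with salt (-0.32, SE 0.063, adjusted p = 0.00174). LPS alone raised it 1.79-fold (0.84, SE 0.063).

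The standard catalytic subunits that these replace are coded by Psmb5, Psmb6 and Psmb7. With LPS alone, Psmb5 rose by 0.32 on the log2 scale (SE 0.058), Psmb6 by 0.22 (SE 0.050) and Psmb7 by 0.50 (SE 0.043), while their immunoproteasome counterparts Psmb8, Psmb9 and Psmb10 rose by 1.04, 1.23 and 0.84. With salt alone Psmb6 fell by 0.22 (adjusted p = 0.00671), and Psmb5 (-0.011) and Psmb7 (-0.037) were not called. With salt in the presence of LPS, Psmb6 fell by 0.14 (adjusted p = 0.0403), and Psmb5 (0.14) and Psmb7 (0.0041) were not called. The difference between a subunit and its counterpart was not tested.

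Psme1 codes for the alpha subunit of the PA28 regulator, a ring that caps the proteasome and opens its gate. Psme1 (mm9, chromosome 14, 56200194 to 56200253, plus strand) read 44.5, 43.6 and 42.2 on the NS arrays, 41.0, 41.9 and 39.0 on the HS arrays, 73.2, 67.9 and 72.9 on the NS+LPS arrays and 77.0, 78.9 and 76.1 on the HS+LPS arrays. All 4 groups were apart, and HS+LPS was the highest. The salt difference without LPS was -0.097 (95% interval -0.20 to 0.0021, adjusted p = 0.116), and in the presence of LPS Psme1 rose 1.08-fold with salt (0.12, SE 0.044, adjusted p = 0.0432). That call ended under 10 of 18 alternatives, among them without NS+LPS replicate 2 (0.082, adjusted p = 0.160) or 3 (0.13, adjusted p = 0.0513) and without any 1 of the HS+LPS replicates (0.12, 0.10 and 0.13 without replicates 1, 2 and 3). Its partner gene Psme2, for the beta subunit, fell by 0.21 on the log2 scale with salt alone (SE 0.055, adjusted p = 0.0135) and by 0.20 with salt in the presence of LPS (SE 0.055, adjusted p = 0.0100), and rose by 0.96 with LPS alone (SE 0.055).

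The levels therefore came in 3 orders. For 8 genes (H2-K1, H2-D1, B2m, Tap1, Tap2, Psmb8, Psmb9 and Psmb10) the group means ran HS, NS, HS+LPS, NS+LPS from low to high. Of all genes tested, 9.9% had that order. Neighbouring groups did not overlap in 6 of the 8, against 39.4% of all genes with that order, and in H2-D1 and Tap2 the LPS groups overlapped. The difference between the LPS groups was not called for H2-K1, H2-D1, B2m and Tap2. The order of H2-K1 is that of its brightest probe, and the second probe put HS+LPS above NS+LPS. In every order, the place of HS+LPS cannot be told apart from its slide. Tapbp ran NS, HS, NS+LPS, HS+LPS, the order of 7.14% of all genes, with overlap between NS and HS. Psme1 ran HS, NS, NS+LPS, HS+LPS, the order of 6.09% of all genes. Its neighbouring groups did not overlap, as in 21% of all genes with that order.

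Whether salt acts alike without and with LPS was tested as an interaction, the log2 difference HS+LPS minus NS+LPS less that of HS minus NS. It was above 0 and called for 7 of the 10 genes and below 0 and called for none, where 17.4% of all genes were called above 0 and 18.8% below (36.2% in all). The median of the 10 was 0.22, against -0.033 for all genes. The largest was that of Tapbp (0.44, SE 0.059, adjusted p = 0.000431), followed by Tap2 (0.44, SE 0.074, adjusted p = 0.00163) and Tap1 (0.31, SE 0.082, adjusted p = 0.0156). For Tap2 the fall of 0.53 with salt alone stood beside -0.091 in the presence of LPS, and for Tapbp 0.076 stood beside 0.52.

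H2-K1 (0.23, SE 0.057, adjusted p = 0.0118), H2-D1 (0.22, SE 0.071, adjusted p = 0.0375), Psme1 (0.21, SE 0.063, adjusted p = 0.0234) and B2m (0.19, SE 0.050, adjusted p = 0.0141) also differed. The second H2-K1 probe had an interaction of 0.54 (SE 0.060, adjusted p = 0.000165 over all probes with a symbol that passed the filter). The size for H2-K1 thus depends on the probe. The immunoproteasome genes were not called, with interactions of 0.16 for Psmb8 (95% interval 0.0023 to 0.32), 0.20 for Psmb9 (-0.058 to 0.46) and -0.16 for Psmb10 (-0.36 to 0.039). The H2-D1 call ended under 12 of 23 alternatives, among them without each 1 of 10 arrays (adjusted p = 0.0549 to 0.0781, all but HS replicate 2 and HS+LPS replicate 3). The Psme1 call ended without NS replicate 2 (adjusted p = 0.0511), HS replicate 3 (0.0543) or NS+LPS replicate 2 (0.0530). Without NS replicate 1, Psmb10 was called below 0 (-0.23, adjusted p = 0.0191). Since HS+LPS lies on its own slide, slide and interaction cannot be told apart. Among all genes called in the interaction 48% were above 0 here, against 58.1% with quantile normalization, 58.2% in the deposited value table and 61.2% with cyclic loess.

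**Figure D4:**
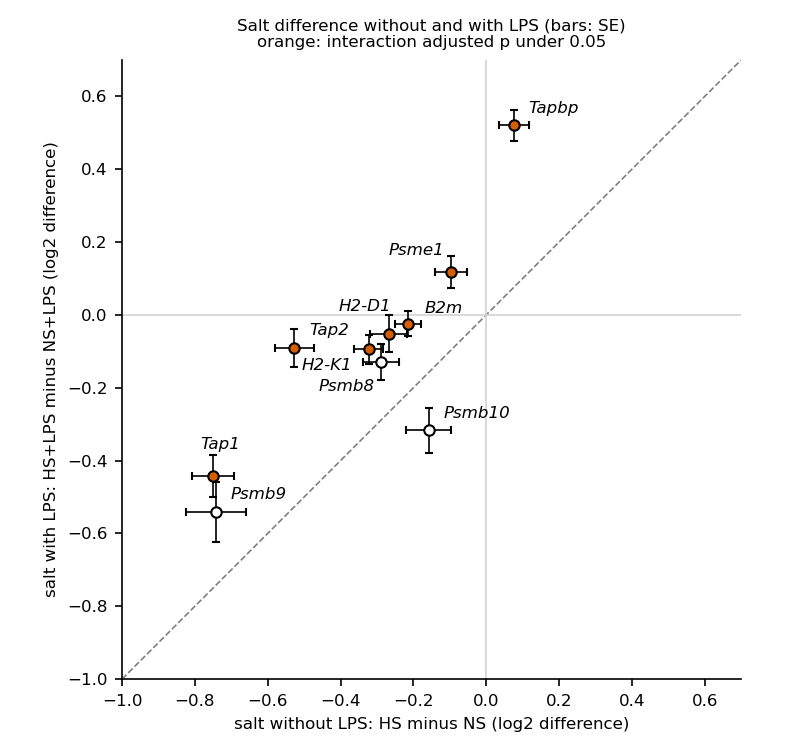
Log2 difference with salt in the presence of LPS (vertical axis) against that with salt alone (horizontal axis) for the 10 genes, with SE bars. The dashed line marks equal differences. Orange points have an interaction adjusted p under 0.05. Tapbp, Tap2 and Tap1 lie farthest above the line among the orange points, and Psmb10 lies below it.

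The members were higher with LPS in added salt as well. In HS+LPS against HS all 10 rose, from 1.60-fold for Psmb10 to 6.15-fold for Tap1 (median log2 difference 1.25, against -0.11 for all genes, 30.5% of which were called higher, 41.8% lower and 72.3% in all). Among the called genes 42.2% were higher, against 54.4% with cyclic loess, which moved the median of all genes by 0.14. In HS+LPS against NS all 10 rose as well, from 1.44-fold for Psmb10 to 3.70-fold for Tapbp (median 0.93, against -0.091 for all genes, 31.3% of which were called higher, 40.6% lower and 71.8% in all). In both, the groups did not overlap for any of the 10, against 74.9% of all genes. These comparisons share arrays with those above.

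**Figure D5:**
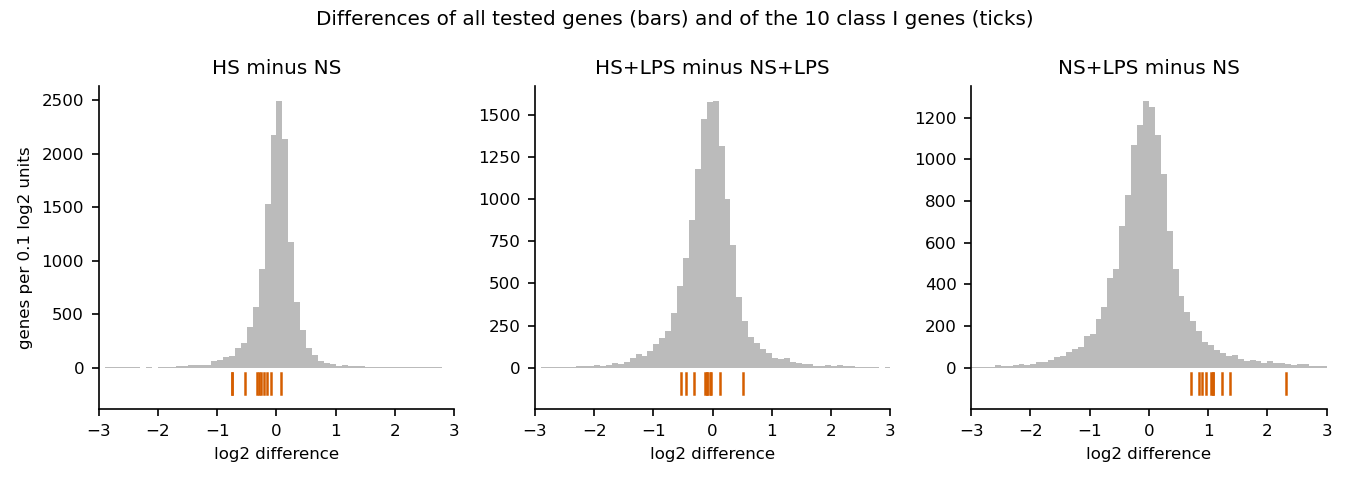
Number of genes per 0.1 log2 units among all genes tested, with the 10 class I genes as ticks below, in 3 comparisons (genes beyond 3 log2 units on either side are not drawn). The ticks of NS+LPS minus NS all lie to the right of 0, from 0.71 to 2.31, and those of HS minus NS lie from -0.75 to 0.076.

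Other genes of the pathway were read from lists chosen for their known roles, with earlier results of these data known. Among 10 genes of loading and peptide trimming, 2 rose and 3 fell with salt alone, 1 rose and 6 fell with salt in the presence of LPS, and 7 rose and 2 fell with LPS alone. The shares of all genes called higher and lower were 18.2% and 18.8%, 26.2% and 31.4%, and 28.6% and 35.1%, in the same order. Tapbpl, a tapasin relative that edits peptides outside the loading complex, fell by 0.49 on the log2 scale with salt alone (adjusted p = 0.000577) and by 0.78 with salt in the presence of LPS (adjusted p = 1.37e-05), and rose by 1.04 with LPS alone. Erap1, the aminopeptidase that trims peptides in the endoplasmic reticulum, fell by 0.46 (adjusted p = 0.00617) and 0.72 (adjusted p = 0.000224) in the salt comparisons. Lnpep, an endosomal aminopeptidase, rose by 0.33 with salt alone and by 1.74 with LPS alone, and Hspa5, a chaperone of the endoplasmic reticulum, fell by 0.25 with salt in the presence of LPS. The median log2 differences of this list were -0.055, -0.19 and 0.40 in the same order, against the all-gene medians given above.

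The 26 genes of the standard proteasome list included the activators Psme3 and Psme4 and the assembly factor Pomp. With salt alone 1 of the 26 fell and none rose, against 18.8% of all genes called lower and 18.2% higher. With salt in the presence of LPS 14 fell and none rose, against 31.4% and 26.2%. With LPS alone 23 rose and 1 fell, against 28.6% called higher and 35.1% lower. The median log2 differences of the 26 were -0.020, -0.13 and 0.27. Among them Psmb2 (-0.39, adjusted p = 1.37e-05), Psma4 (-0.36, adjusted p = 0.000586) and Psmc4 (-0.29, adjusted p = 0.00175) fell most with salt in the presence of LPS. Psma4, a subunit of the outer ring, rose by 0.52 with LPS alone and Psma5, of the same ring, by 0.48.

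Of 23 genes for regulators of class I expression, Ifnb1 was below background on all NS and HS arrays and Rfxap on all NS+LPS and HS+LPS arrays, so 22 could be read in each salt comparison. Of these, 3 rose and 9 fell with salt alone, against 18.2% of all genes called higher and 18.8% lower. With salt in the presence of LPS 6 rose and 14 fell, against 26.2% and 31.4%. The median log2 differences were -0.14 and -0.26. With LPS alone 14 of the 23 rose and 5 fell (median 0.31), against 28.6% and 35.1%. Ifnar1, a chain of the receptor for type I interferon, fell by 0.73 with salt alone (SE 0.052, adjusted p = 6.32e-06), and Jak2, a kinase of cytokine receptors, rose by 0.48. Rfx5 codes for a subunit of the RFX complex, which binds class I and class II promoters. It rose by 0.66 with salt alone (SE 0.13, adjusted p = 0.00318) and by 0.56 in the presence of LPS (adjusted p = 0.00452). Its signal was dim, with group means of 0.0932 to 0.153. Rfxank and Rfxap code for other subunits of the complex and are named here after their values were seen. Rfxank fell by 0.42 with salt alone (adjusted p = 0.000484) and by 0.41 in the presence of LPS (adjusted p = 0.000302). Its group means were 2.18 to 4.28. Rfxap was not called with salt alone (0.38). Ifnar2, the other receptor chain, fell by 0.49 with salt in the presence of LPS (adjusted p = 9.51e-06).

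With LPS alone, Ifnb1, the gene for interferon beta, was at least 26.4-fold higher, being not well above background on any NS array. Irf7, which drives type I interferon genes, rose by 6.11 on the log2 scale (SE 0.099), and Stat2, a subunit of the factor that interferon activates, by 2.49 (SE 0.052). Irf1, an interferon regulatory factor, had a mean signal of 6.06 ± 0.295 in the NS group, 5.22 ± 0.179 with salt, 11.96 ± 0.583 with LPS and 8.19 ± 0.536 with both (SD, n = 3). It fell by 0.55 with salt in the presence of LPS (SE 0.060, adjusted p = 3.97e-05).

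Nlrc5, the class I activator, was named for its role after its values were seen. Its signal was 2.62 ± 0.131 in the NS group, 2.83 ± 0.108 with salt, 8.38 ± 0.130 with LPS and 6.18 ± 0.0697 with both (SD, n = 3). It rose by 1.68 on the log2 scale with LPS alone (SE 0.045). With salt alone it was at 0.11 (adjusted p = 0.0826), and with salt in the presence of LPS it fell by 0.44 (SE 0.045, adjusted p = 2.33e-05). Its interaction was -0.55 (SE 0.063, adjusted p = 0.000179), with the same limit on the slide of HS+LPS. Whether Nlrc5 had a part in the levels of the members was not tested.

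The 5 genes outside the list whose log2 signals followed the mean of the members most closely over the 12 arrays were Lgals9, Fcgr4, Ddt, Oas1a and Ifi202b, with Pearson correlations of 0.998 to 0.999. The 12 points share slides and fall into LPS and no-LPS groups, so the correlations describe these arrays only. Lgals9, the gene for galectin-9, was at -1.45 with salt alone, -0.29 with salt in the presence of LPS and 4.27 with LPS alone, and Fcgr4, for an Fc receptor, at -0.83, -0.29 and 2.52.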

How the data were processed

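RNA of RAW264.7 cells was labelled with Cy3 and hybridised to 12 one-colour arrays. Agilent Feature Extraction 10.7.3.1 made the scanner intensity values, which per the file headers are linear, with background and spatial trend removed array by array. Probe positions are on mm9. The deposited value table also holds intensity, normalized between arrays in a way not given in the sources used here. Groups came from the sample titles.

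Computed from the scanner files: log2 of the processed signal over the array's 75th percentile (59305 non-control spots), outlier spots left out (10 probes dropped), none of the members' spots saturated, spots averaged to 55681 probes. Of 33256 probes with a symbol, 18846 passed a filter (well above background throughout 1 or more groups). Each of 13860 genes was read by its brightest such probe. A fold is the power of 2 of a difference of mean log2 values. Where a probe was dim throughout a group, a fold is given as at least the bright group's mean over the higher of the dim probe and the array's lowest signal above background. Group means on 12 arrays were fitted with limma 3.58.1 in R 4.3.3 (lmFit, eBayes, 8 residual degrees of freedom, 2-sided, Benjamini-Hochberg over all genes, called under 0.05). The number of arrays limits the precision, and the median SE of a log2 difference was 0.066 for differences of 2 groups and 0.093 for interactions. The fit was tested on simulated data. Tables were read with data.table (version 1.17.8), blocks fitted with statmod 1.5.0, sequences searched with pandas 2.3.3 in Python 3.11.15, and figures drawn with matplotlib 3.10.9 and numpy 2.4.6.

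The members, lists and rule for named genes (all members, and up to 3 called genes with the largest differences per list) were chosen with earlier results of these data known. Lists covered loading and trimming, other class I heavy chains, the standard proteasome with other activators, regulators, MHC class II and markers of macrophages and other cell types. Symbols of 2 markers were matched by RefSeq accession (Adgre1 and Spi1). Alternatives were normexp background correction (offset 50), quantile and cyclic loess normalization, the deposited table, other filters, averaging the probes of each gene, array weights, an intensity trend, fits of only the compared groups, slide or replicate number as a block, fits within the shared slide, and leaving out each array. Samples with the same replicate number did not deviate together (2 of 18 pairs had a correlation over 0.1, range -0.20 to 0.12), so no pairing was used. Near-identical class I genes may share probe signal.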

Additional observations from a re-analysis of the deposited data

Results flagged for a closer look

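The salt difference itself differed without and with LPS for 7 of the 10 genes, by limma's interaction term, where 36.2% of all genes were called. The interaction (salt with LPS less salt without LPS, log2 scale) was 0.44 for Tapbp (adjusted p = 0.000431), 0.44 for Tap2 (adjusted p = 0.00163), 0.31 for Tap1 (adjusted p = 0.0156), 0.23 for H2-K1 (adjusted p = 0.0118), 0.22 for H2-D1 (adjusted p = 0.0375), 0.21 for Psme1 (adjusted p = 0.0234) and 0.19 for B2m (adjusted p = 0.0141). The H2-D1 call ended under 12 of 23 alternatives, the Psme1 call under 4, and those of B2m and Tap1 under 1 each. By the brightest probes, only Tapbp and Psme1 of these were called higher with salt in the presence of LPS. That Psme1 call ended under 10 of 18 alternatives, and the second H2-K1 probe was also higher there (0.16, adjusted p = 0.00860). Tap1 was called lower in both salt comparisons. Slide and treatment cannot be told apart here, because no other group shares the slide, or the scan day, of the 3 HS+LPS arrays. Groups of 3 arrays were not searched for single deviating arrays.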

How the results depend on the processing

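Over the alternatives, the count of called members was 7 to 9 for HS minus NS, 4 to 6 for HS+LPS minus NS+LPS, 10 in each run for the 3 comparisons with and without LPS, and 4 to 9 for the interaction, where only the run with no filter on dim probes moved it past 1.5 times (4 against 7). Of 1170 values of single members, 1113 kept their direction and side of the threshold, 38 lost a call, 18 gained one and 1 reversed. H2-K1 for HS+LPS minus NS+LPS was 0.034 with the mean of its probes, against -0.095, since its probes differ in sign. The total of called genes stayed within 1.5 times in 117 of 117 runs. With no filter, which tests 24180 genes, the higher genes numbered 6028 for NS+LPS minus NS (against 3965) and 7887 for HS+LPS minus NS (against 4333). The share called was then 17.8% for HS minus NS, 29.5% for HS+LPS minus NS+LPS, 44.1% for NS+LPS minus NS, 40.9% for HS+LPS minus HS, 56.3% for HS+LPS minus NS and 15.8% for the interaction.

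With replicate number as a block, 4 members were called for HS+LPS minus NS+LPS (against 6) and 6 in the interaction (against 7), and the number of called members did not change in the other comparisons. The fixed slide block and the shared slide alone could be fitted only for HS minus NS and NS+LPS minus NS. The second H2-K1 probe was followed under 10 alternatives chosen after seeing the data. Salt without LPS rests on arrays of 1 slide, and the largest member differences there (Tap1, -0.79 to -0.68, Psmb9, -0.83 to -0.66, and Tap2, -0.57 to -0.50) kept their calls under all 20 alternatives.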

Other observations

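Class I-like heavy chains and class II genes were read from lists too. Of 21 listed other class I heavy chains, 15 were tested. With salt alone 2 rose and 12 fell (median log2 difference -0.30), against 18.2% of all genes called higher and 18.8% lower. With LPS alone 12 rose and 2 fell (median 1.14), against 28.6% and 35.1%. With salt in the presence of LPS 5 rose and 4 fell (median 0.13), against 26.2% and 31.4%. Mr1, which presents vitamin metabolites to MAIT cells, fell by 1.18 on the log2 scale with salt alone (SE 0.084, adjusted p = 6.96e-06), and Fcgrt, the neonatal Fc receptor, by 0.58 (SE 0.062). Mr1 was dim, with mean signals of 0.175 in NS and 0.0773 in HS, though above background on all 3 arrays of each. Cd1d1, which presents lipids, was at least 1.67-fold lower with salt alone and at least 1.83-fold lower with salt in the presence of LPS, being not well above background on any HS or HS+LPS array. H2-M3, which presents formylated peptides, rose by 1.09 with salt in the presence of LPS (SE 0.081, adjusted p = 3.05e-06), and Hfe, a regulator of iron uptake, fell by 0.58 (SE 0.058). With LPS alone H2-T24 rose by 4.13 (SE 0.11), H2-T10 by 1.84 (SE 0.094) and H2-Q10 by 1.59 (SE 0.073), all genes with close relatives on which these probes may also read.

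Of 8 class II genes, 5 were tested. With LPS alone 4 fell and 1 rose, against 35.1% of all genes called lower and 28.6% higher. H2-Eb1, which was above background on NS arrays only, was at least 1.57-fold lower. With salt in the presence of LPS the other 4 rose (median log2 difference 0.76), against 26.2% of all genes called higher. H2-Oa, which tunes class II loading, had mean signals of 0.689 ± 0.0283 in the NS group, 0.648 ± 0.0426 with salt, 0.221 ± 0.00981 with LPS and 0.713 ± 0.0390 with both (SD, n = 3). It fell by 1.64 with LPS alone and rose by 1.69 with salt in the presence of LPS (SE 0.062, adjusted p = 6.54e-08). H2-Ab1, the beta chain of the A molecule, fell by 0.22 with salt alone (adjusted p = 0.0250) and rose by 0.89 with salt in the presence of LPS (SE 0.067, adjusted p = 3.16e-06). Cd74, the invariant chain, rose by 0.33 with salt alone (adjusted p = 0.00228) and by 1.29 with LPS alone (SE 0.062). The HS+LPS values share the limit on slide and scan day.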
